A study of Mus musculus with 5 samples.

Results

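The stromal cells of the temporomandibular joint (TMJ) disc were compared between juvenile mice at 3 w and adult mice at 16 w. The disc is a pad of fibrocartilage that separates the moving surfaces of the jaw joint. A barcode was taken as a stromal cell when it had at least 1000 UMIs (unique molecular identifiers, each counting 1 captured transcript) and at most 30% mitochondrial UMIs, when Col1a1, Col1a2, Col3a1, Dcn, Fmod, Bgn and Lum summed to at least 1% of its UMIs, and when it held 0 UMIs of Pecam1, Cdh5, Ptprc, Tyrobp, Rgs5 and Alas2, which mark endothelial, immune, mural and red blood cells. This gave 7255 of 9401 barcodes at 3 w (77.2%, exact binomial 95% interval 76.3 to 78.0) and 7121 of 8786 at 16 w (81.0%, 80.2 to 81.9), which is 14376 of the 18187 barcodes in these libraries and of 51948 in all 5 libraries of the series.

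Both libraries came from untreated wild type (WT) C57BL/6 mice, described as males, and differ by label only in age, 3 weeks against 16 weeks. Discs were dissected free under a microscope and dissociated in Pronase followed by Collagenase P, and 1 10x Genomics 3′ library was made for each age. How many mice were pooled in each is not given in the sources used here. With 1 library per age there is no replicate and therefore no test, and the age of the mice and everything else that differed between the libraries cannot be told apart. Every interval below is an exact 95% interval that covers counting error only.

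Disc stromal cells, which range from fibroblasts to chondrocyte-like cells, build and maintain a matrix of mostly type I collagen with proteoglycans that set fibril size and hold water. Fibrillar collagens are secreted as procollagens, trimmed, and cross-linked into fibrils by lysyl oxidases. Lubricin, made from Prg4, coats the disc surfaces. Growing connective tissue is known for high collagen synthesis and grown tissue for a low rate of collagen renewal.

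The stromal cells held 100723977 UMIs at 3 w and 73474650 at 16 w, with a median of 13108 and 9472 UMIs and of 3340 and 2605 genes per cell. Dcn was detected in 99.8% of the 3 w and 99.99% of the 16 w cells, and Col1a1 in 99.9% and 88.7%, which the choice of cells favours, since both genes are part of it. Pdgfra, a fibroblast receptor that the choice did not use, was at 146 and 189 CPM (counts per 1000000 UMIs of the summed stromal cells) and was detected in 71.5% and 69.5% of the cells. These shares of cells are at full depth, which was greater at 3 w. The 7 genes of the choice made up a median of 5.90% of a cell's UMIs at 3 w and 3.65% at 16 w, and Dcn alone held 32.3% of their UMIs at 3 w and 69.7% at 16 w. Cells near the limit were few, with 87 and 267 between 1 and 1.5% and 40 and 67 just outside, between 0.5 and 1%. The libraries shared 20 barcodes, 14 of them stromal in both. Xist, made from the inactive X chromosome, was at 0.0993 and 0.367 CPM and the Y-linked Ddx3y at 146 and 123.

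Markers of other cell types that the choice of cells did not use were low but mostly higher at 16 w. The summed mural list went from 27.2 to 57.5 CPM, with 3 of 5 members that could be compared at least 2-fold higher, and Rgs5 at 0 by the choice. The endothelial list went from 13.3 to 37.1 CPM (1 of 2, Plvap, with Pecam1 and Cdh5 at 0 by the choice), the Schwann cell list from 44.5 to 90.8 (1 of 3, S100b, which chondrocytes also express), and the leukocyte list from 7.45 to 11.7 (1 of 2, S100a8). Skeletal muscle markers were at 6.64 and 7.91 CPM, epithelial markers at 10.7 and 25.03, erythroid markers at 4.398 and 2.83 and adipocyte markers at 0.179 and 0.667. Their part in the differences below was not tested as such, but the genes named below are also given where they change when cells with such markers are left out.

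Of 27998 genes listed, 12053 had at least 100 stromal UMIs in the library where their CPM was higher. At 16 w, 632 of them (5.24%) were at least 2-fold higher and 666 (5.53%) at least 2-fold lower than at 3 w, 10755 lay within 2-fold, and the median log2 ratio was -0.09. Counts for the gene lists below are to be read against these shares. Among the higher genes 109 were past 4-fold and 16 past 10-fold, and among the lower genes 88 and 18. Under a TMM-type scaling the split was 772 higher and 524 lower, so that 59.6% rather than 48.7% of the genes past 2-fold were higher. Levels are compared between ages for 1 gene at a time, apart from the sums, shares and ranks by CPM that are given as such.

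**Figure D1:**
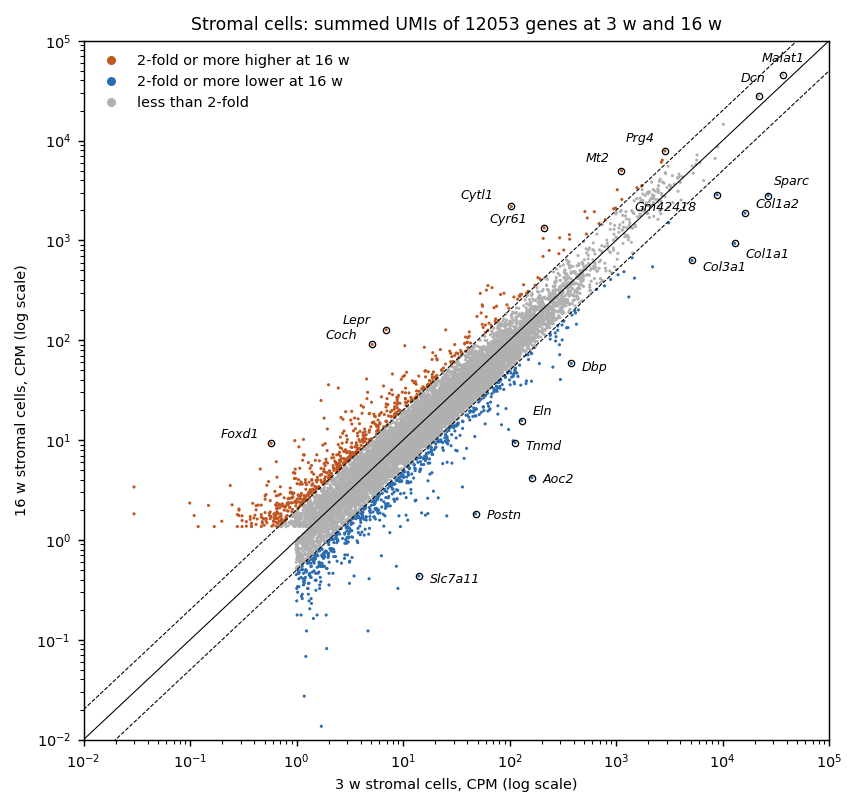
Each point is 1 of the 12053 genes, with its CPM in the stromal cells of the 3 w library on the x axis and of the 16 w library on the y axis, both on a log scale. The solid line marks equal levels and the dashed lines a 2-fold difference. Col1a1, Col1a2, Col3a1 and Sparc lie far below the line at the abundant end of the plot, and Cytl1, Lepr and Coch far above it.

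By CPM, 4 genes of the collagen matrix were among the 5 that fell most, beside Gm42418. Summed over Sparc, Col1a1, Col1a2 and Col3a1, the level went from 61148 CPM at 3 w to 6253 at 16 w, and this accounted for 32.1% of all the CPM that genes lost between the ages. Col1a1 (ENSMUSG00000001506; chromosome 11, 94936224 to 94953042, plus strand of GRCm38), the gene of 1 of both kinds of chain in type I collagen, was at 13006 CPM (12984 to 13029) at 3 w and 935 (928 to 942) at 16 w, 13.9-fold lower (13.8 to 14.0). Col1a2 (ENSMUSG00000029661; chromosome 6, 4504814 to 4541544, plus strand), the gene of its partner chain, was at 16220.3 and 1875 CPM, 8.65-fold lower (8.60 to 8.70). Type III collagen, the thin-fibril partner of type I, is encoded by Col3a1 (ENSMUSG00000026043; chromosome 1, 45311538 to 45349706, plus strand), which was at 5168 and 629.7 CPM, 8.21-fold lower (8.13 to 8.28). Sparc (ENSMUSG00000018593; chromosome 11, 55394500 to 55423183, minus strand), which encodes the collagen-binding glycoprotein osteonectin, was at 26754 and 2814 CPM, 9.51-fold lower (9.47 to 9.55). For all 4, the counting intervals of the ages lay far apart. Col1a1, Col1a2 and Col3a1 belong to the genes that chose the cells, and Sparc does not.

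The 250 bases upstream of the RefSeq start are shown for the 3 of these genes that had an entry and for Cytl1, a gene among the 10 largest rises in CPM that was also among the 15 largest ratios, because the comparison turns on these genes. Cyr61 (Ccn1 in RefSeq) is shown with them as a well-known target of the mechanosensitive YAP and TEAD factors that was 6.31-fold higher. The sequences are from RefSeq on GRCm38.p6, written 5′ to 3′ on the strand of the gene. The RefSeq start need not be the outermost end of the GENCODE gene given above, and the windows of Col1a2 and Sparc lie inside those gene bounds. Capitals mark CCAAT (or ATTGG on the other strand) in the first 4 and CATTCC (or GGAATG), the core that TEAD factors bind, in Cyr61. Col1a2 lies at chr6:4505368-4505617 on the plus strand, Col3a1 at chr1:45311288-45311537 plus, Sparc at chr11:55420081-55420330 minus, Cytl1 at chr5:37735269-37735518 plus and Cyr61 at chr3:145649986-145650235 minus.
Col1a2: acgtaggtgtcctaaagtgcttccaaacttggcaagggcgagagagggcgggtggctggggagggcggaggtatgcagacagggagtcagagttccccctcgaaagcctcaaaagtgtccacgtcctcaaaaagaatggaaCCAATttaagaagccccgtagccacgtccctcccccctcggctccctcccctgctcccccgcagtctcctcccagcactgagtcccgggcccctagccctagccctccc
Col3a1: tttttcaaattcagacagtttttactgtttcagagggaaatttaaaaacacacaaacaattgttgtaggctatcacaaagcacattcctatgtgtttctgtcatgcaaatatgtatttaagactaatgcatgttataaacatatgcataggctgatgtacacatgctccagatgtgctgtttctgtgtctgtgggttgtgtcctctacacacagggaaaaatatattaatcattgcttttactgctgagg
Sparc: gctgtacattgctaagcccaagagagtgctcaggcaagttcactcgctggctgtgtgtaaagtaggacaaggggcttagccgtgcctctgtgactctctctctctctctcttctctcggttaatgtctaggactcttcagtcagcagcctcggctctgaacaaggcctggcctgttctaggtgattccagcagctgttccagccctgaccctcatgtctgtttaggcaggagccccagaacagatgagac
Cytl1: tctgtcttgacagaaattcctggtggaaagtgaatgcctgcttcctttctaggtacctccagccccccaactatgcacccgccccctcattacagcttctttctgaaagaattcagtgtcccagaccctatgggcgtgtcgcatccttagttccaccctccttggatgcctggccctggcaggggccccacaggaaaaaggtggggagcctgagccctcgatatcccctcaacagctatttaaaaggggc
Cyr61: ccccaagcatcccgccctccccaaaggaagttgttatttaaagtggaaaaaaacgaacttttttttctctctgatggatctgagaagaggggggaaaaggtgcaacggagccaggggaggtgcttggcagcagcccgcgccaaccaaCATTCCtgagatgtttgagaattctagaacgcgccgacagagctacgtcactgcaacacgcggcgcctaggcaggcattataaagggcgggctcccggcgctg
CCAAT was found once upstream of Col1a2, with its first base 109 bases before the start, and not in the windows of Col3a1, Sparc or Cytl1. CATTCC was found once upstream of Cyr61, 103 bases before the start. It was marked in that window only, and the window of Col3a1, a lower gene, holds CATTCC as well. Of 32851 RefSeq windows of the same length, 33.8% hold CCAAT and 12.6% hold CATTCC on either strand, so that each motif is common among promoters.

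The lower level of Col1a1, Col1a2, Col3a1 and Sparc was found across most stromal cells. Col1a1 and Sparc were also lower in endothelial cells of the same libraries, as given below. The part of free RNA in droplets was not tested. Within single cells, the median of Col1a1 was 8676 CPM at 3 w, with 1975 at the 10th and 24508 at the 90th percentile, and 542 at 16 w, with 1969 at the 90th percentile. Of the 16 w cells, 90.04% lay below the 10th percentile of the 3 w cells for Col1a1 and 91.9% for Sparc. Sparc had a median of 21706 CPM per cell at 3 w and 1477 at 16 w, and Col3a1 3409 and 176. After each cell was thinned to 1000 UMIs, so that both ages had the same depth, Col3a1 was detected in 89.7% (89.0 to 90.4) of the 3 w and 28.4% (27.3 to 29.4) of the 16 w cells, and Col1a1 in 96.2% (95.8 to 96.7) and 44.9% (43.7 to 46.1).

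**Figure D2:**
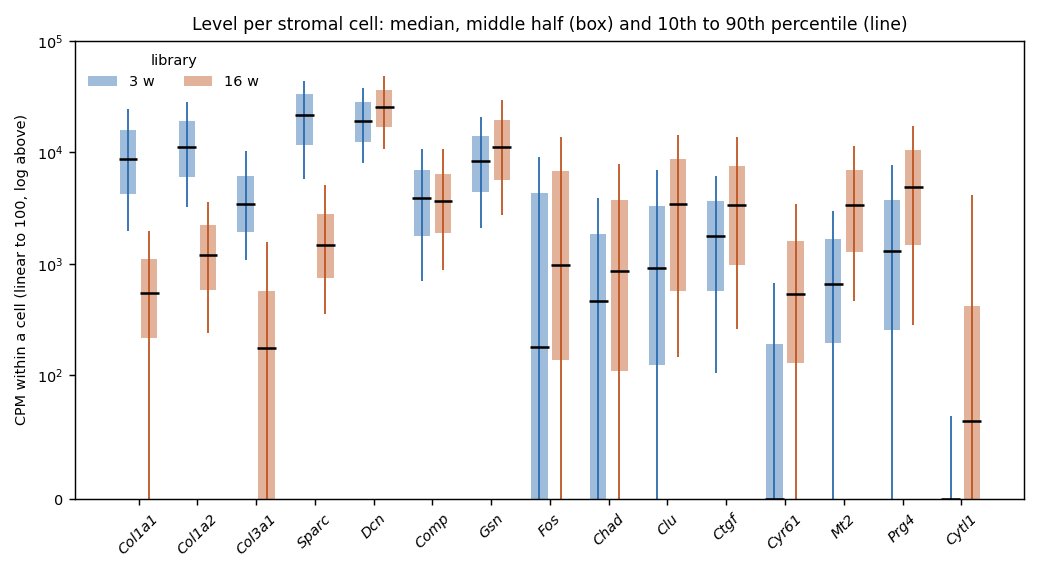
The level of 15 genes within single stromal cells, as CPM of the cell's own UMIs on an axis that is linear to 100 and logarithmic above, at 3 w (blue) and 16 w (orange). The black line is the median over cells, the box the 25th to 75th percentile and the thin line the 10th to 90th. For Col1a1, Col1a2 and Sparc the box at 16 w lies wholly below the box at 3 w, for Dcn and Comp the boxes overlap, and for Cytl1 the 90th percentile reaches 4091 CPM at 16 w.

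As a list, the fibrillar collagens were lower. Of its 6 genes, 5 were at least 2-fold lower and 0 higher, with a median log2 ratio of -2.43 against -0.09 for all genes. Col1a1, Col1a2 and Col3a1, given above, are counted among the 5 and belong to the genes that chose the cells. With cells chosen by Dcn, Fmod, Bgn and Lum, 5 were lower and the median was -2.45. Col5a2, a chain of the type V collagen that starts fibrils, was at 1489 CPM at 3 w and 419 at 16 w, 3.55-fold lower (3.51 to 3.60). The collagens typical of cartilage were split. Of 7 compared, 5 were lower and 2 higher, with a median of -1.68. Col9a1, a chain of the type IX collagen on the surface of cartilage fibrils, was at 8.95 and 0.327 CPM, 27.4-fold lower (18.3 to 43.0), and Col11a1, a chain of the fibril-starting type XI collagen, at 296 and 71.6, 4.13-fold lower (4.01 to 4.25). The 2 higher ones were Col2a1, the main collagen of hyaline cartilage, at 23.9 and 52.8 CPM, and Col27a1, a fibrillar chain of growing cartilage, at 34.7 and 79.2. Only 1 was higher without the cells above the 95th percentile of UMIs, and also with equal weight for every cell.

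Network-forming and fibril-associated collagens followed to a lesser degree, with 5 of 14 lower, 1 higher and a median of -0.85. The basement membrane chain Col4a2 was at 120.0 and 43.4 CPM, 2.77-fold lower (2.66 to 2.88). The abundant Col6a1, a chain of the beaded filaments around cells, was at 1044 and 453 CPM, 2.30-fold lower (2.28 to 2.33). Col12a1 and Col14a1, which line the surface of type I fibrils, were within 2-fold, at 87.2 and 78.3 CPM and 309.9 and 290.5 CPM. The single higher member was Col22a1, a collagen of tissue junctions that is also used as a marker of the synovial lining, at 0.933 and 4.72 CPM.

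Genes for the modification and cross-linking of collagen, most of them enzymes, were mostly within 2-fold. Of 27 genes, 3 were lower and 0 higher, with a median of -0.15. Sparc, which is not an enzyme, was 1 of the 3. The others were Lox, which encodes the cross-linking enzyme lysyl oxidase, at 353 and 134 CPM (2.63-fold lower, 2.58 to 2.69), and Adamts2, the protease that trims the amino end of procollagen, at 111 and 46.9 (2.36-fold lower, 2.27 to 2.46). Plod1, a lysyl hydroxylase, was just inside the limit at 66.0 and 33.1 CPM. The collagen chaperone Serpinh1 was at 334 and 396 CPM, Pcolce, which helps trim the other end, at 244 and 239, and the prolyl hydroxylase subunits P4hb and P4ha1 at 168 and 251 and at 116 and 210.2.

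Elastic fibre genes were found in both directions. Eln, the gene of tropoelastin, was at 129.9 CPM at 3 w and 15.7 at 16 w, 8.30-fold lower (7.82 to 8.82). The microfibril genes Mfap2 and Mfap4 were at 108 and 9.85 CPM (10.95-fold lower, 10.2 to 11.8) and at 77.7 and 22.1 (3.52-fold lower, 3.34 to 3.72). In the opposite direction, Fbln1, which encodes the elastin-binding fibulin 1, was at 55.8 and 219 CPM, 3.93-fold higher (3.81 to 4.05), and Ltbp2, a microfibril-bound protein, at 6.07 and 18.2, 3.01-fold higher (2.73 to 3.31). Over the list 4 of 17 were lower and 3 higher, with a median of -0.09. Fbn1, the main microfibril component, was within 2-fold at 171 and 113 CPM.

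Among the matricellular and adhesive glycoproteins 3 of 20 were lower and 1 higher, with a median of -0.12. Sparc, given above, was again 1 of the 3 lower members. Postn, the gene of periostin, a protein of growing and loaded connective tissue, was at 48.0 and 1.82 CPM, 26.3-fold lower (22.1 to 31.5). Spp1, which encodes osteopontin, was at 889.7 and 406 CPM, 2.19-fold lower (2.16 to 2.22), and it was 1.198 times its 3 w level within cells that had Tnmd or Kera. The higher member was Thbs1, the gene of thrombospondin 1, an activator of latent TGF-beta, at 55.3 and 226 CPM, 4.09-fold higher (3.97 to 4.22). Its ratio was 4.23 within cells with Chad, 1.45 within cells without it and 1.88 within cells with Tnmd or Kera, so that it was past 2-fold only in the first of these. Fn1, the gene of fibronectin, was at 1675 and 1835 CPM and Thbs4, typical of tendon, at 948 and 799.

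Small leucine-rich proteoglycans, which bind collagen fibrils and set their spacing, were not lower as the collagens were. None of the 13 compared was 2-fold lower, 2 were higher, and the median was 0.38. Under a median-of-ratios or TMM-type scaling, or without the cells with the 9 further markers of other cell types, 4 were higher. It was 2 when the 20 most abundant and mitochondrial genes were left out, and 1 with equal weight for every cell. Chad, the gene of the cell-binding chondroadherin, was at 1571 and 3366 CPM, 2.14-fold higher (2.13 to 2.16) but 1.96-fold with equal weight for every cell, and Aspn, the gene of asporin, at 193 and 410.0, 2.12-fold higher (2.08 to 2.16). Dcn was at 21765 and 27926 CPM, a ratio of 1.28 (1.28 to 1.29), Fmod, the gene of fibromodulin, at 3933 and 4386, and Bgn, the gene of biglycan, at 6648 and 3979, a ratio of 0.599 (0.596 to 0.601). All 3 therefore lay within 2-fold between the ages, and so did Lum, the gene of lumican, at 566 and 338 CPM. These 4 belong to the genes that chose the cells.

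Cartilage matrix and lubrication genes moved both ways, with 3 of 14 higher, 3 lower and a median of -0.09. Cytl1 (ENSMUSG00000062329; chromosome 5, 37735519 to 37739820, plus strand), which encodes a small secreted protein of cartilage, was at 104 CPM (102 to 106) at 3 w and 2189.6 (2179 to 2200.3) at 16 w, 21.1-fold higher (20.7 to 21.5). Prg4 (ENSMUSG00000006014; chromosome 1, 150449412 to 150466165, minus strand), the lubricin gene, was at 2873 and 7868 CPM, 2.74-fold higher (2.73 to 2.75), and Matn4, the gene of a matrilin that links cartilage fibrils, at 6.92 and 21.4, 3.098-fold higher (2.83 to 3.39). The lower members were Cilp2, the gene of a cartilage intermediate layer protein, at 1316 and 271 CPM (4.86-fold lower, 4.78 to 4.93), Ucma, made in upper-zone and maturing chondrocytes, at 37.4 and 6.56 (5.70-fold lower, 5.18 to 6.28), and Lect1, the gene of the antiangiogenic chondromodulin, at 4.80 and 0.408 (11.7-fold lower, 8.12 to 17.6). Comp, whose pentameric product links collagen fibrils, stood at 5606 and 5792 CPM, a ratio of 1.03 (1.03 to 1.04), and Acan, the gene of the water-holding aggrecan, at 27.7 and 35.2.

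Cytl1 and Prg4 were spread over the cells in different ways. At 1000 UMIs per cell, where stromal cells had a median of 13108 and 9472 UMIs and endothelial cells of 6076 and 5903 before thinning, Cytl1 was detected in 3.54% (3.13 to 3.99) of the 3 w and 25.1% (24.1 to 26.1) of the 16 w stromal cells, and in 0.455% and 8.37% of endothelial cells, which should lack it. Prg4 was detected in 61.5% (60.4 to 62.6) and 82.4% (81.5 to 83.3) of stromal and in 6.98% and 21.8% of endothelial cells. At full depth 12.4% and 51.5% of the stromal cells had a UMI of Cytl1, and 1 cell held 13.9% of all its 3 w UMIs. At 16 w the highest cell held 0.809%, and the 90th percentile of the cells was 4091 CPM against a median of 62.9, so that a minority of cells held most of it. Prg4 had a median per cell of 1292 CPM at 3 w and 4924 at 16 w.

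Other secreted and membrane proteins were among the 15 genes with the largest ratios in each direction. Higher at 16 w were Lepr, the leptin receptor gene, at 6.94 and 127 CPM (18.3-fold, 17.0 to 19.8), Coch, the gene of the matrix protein cochlin, at 5.13 and 90.7 (17.7-fold, 16.2 to 19.4), and Penk, the gene of the opioid precursor proenkephalin, at 2.46 and 33.3 (13.5-fold, 11.9 to 15.5). At full depth Lepr was found in more cells, with a UMI in 6.16% of the 3 w and 41.0% of the 16 w cells, whereas Coch was found in 1.05% and 4.27%. The ratio of Coch ran from 7.42 to 86.6 over the alternatives given at the end, far wider than its counting interval. Foxd1, a forkhead transcription factor gene, was at 0.576 and 9.31 CPM, Tcap, known from the sarcomere, at 1.70 and 24.9, Lsmem1 at 2.00 and 35.8, and Adamts18, a metalloprotease gene, at 0.457 and 5.13. Elf3 went from 0.109 to 1.76 CPM, Kcnh3 from 0.119 to 1.36 and 5930412G12Rik from 0.238 to 3.51. Elf3 and Kcnh3 lay near the minimum of 100 UMIs at 16 w, so they also rested on few counts.

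The 4 remaining genes of the highest 15 rested on few cells. Cxcl13, a B-cell chemokine gene, went from 3 to 249 UMIs, a ratio of 114 (38.5 to 555), in 17 of the 16 w cells, and 1 cell held 27.7% of them. C7, a complement component gene, had 3 and 134 UMIs, in 58 cells at 16 w, a ratio of 61.2 (20.5 to 301). Cnn1 and Actg2, genes of smooth muscle contraction, were found in 16 and 11 cells at 16 w, and without cells that had a UMI of 9 further markers of muscle, mural, Schwann, immune and lining cells they were no longer 2-fold higher, with ratios of 1.05 and 1.64. Myh11, itself 1 of these markers, went from 0.963 to 9.88 CPM.

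At the lower end, Aoc2, an amine oxidase gene, was at 162 CPM at 3 w and 4.19 at 16 w, 38.7-fold lower (34.5 to 43.4). At full depth it was found in 21.5% and 2.16% of the cells. Slc7a11, the cystine importer gene, was at 14.1 and 0.436 CPM (32.3-fold lower, 22.8 to 47.4), C1qtnf6, the gene of a secreted C1q-like protein, at 25.7 and 1.74 (14.8-fold lower, 12.4 to 17.8), and Cpz, the gene of a carboxypeptidase that binds Wnt proteins, at 4.69 and 0.122 (38.3-fold lower, 19.98 to 84.2). Tnmd, the tendon gene tenomodulin, was at 113 and 9.42 CPM, 11.9-fold lower (11.1 to 12.9). Agtr2, the angiotensin II type 2 receptor gene, went from 172 UMIs to 1. Its ratio was 0.0239 with counts under 3 taken as 3, and the interval from the counts as they were was 0.000201 to 0.0450. The neighbouring gene Aoc3 is close in sequence to Aoc2 and was at 2.95 and 1.39 CPM, so that reads of the pair may be split. The neutrophil chemokine gene Cxcl5 had 119 and 2 UMIs, a ratio of 0.0346 with counts under 3 taken as 3. Its interval from the counts as they were was 0.00276 to 0.0851. Adm2, the gene of a peptide hormone, was at 1.92 and 0.0817 CPM and A2m, the gene of a protease inhibitor, at 1.22 and 0.0681.

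**Figure D3:**
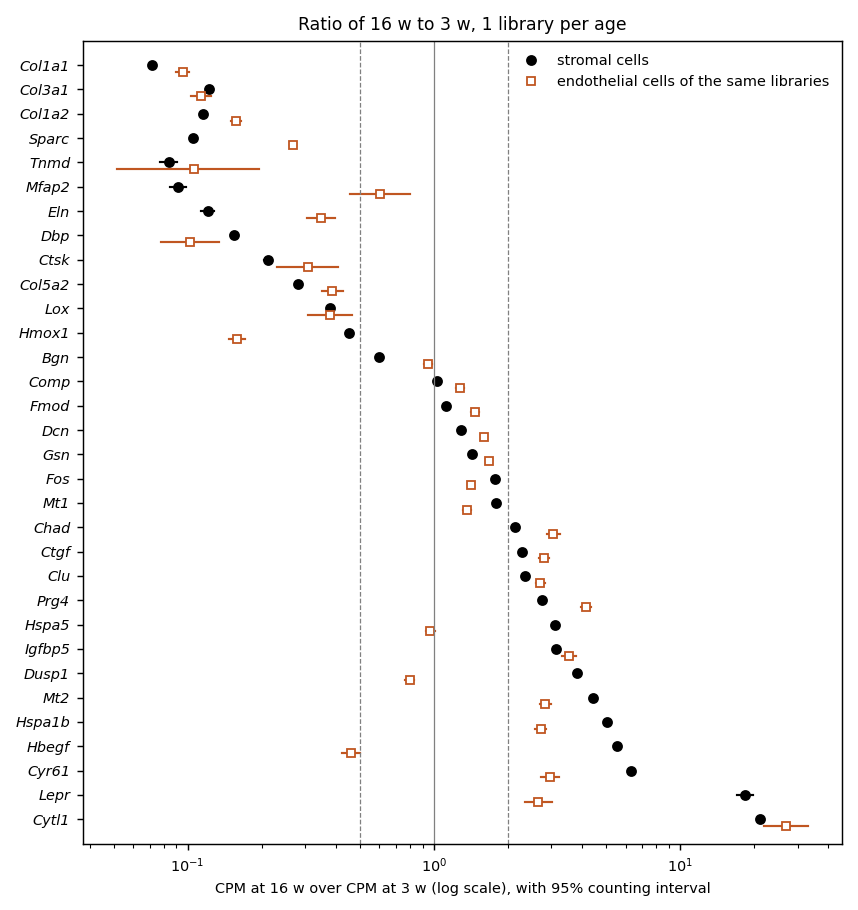
The ratio of CPM at 16 w to CPM at 3 w, on a log axis, for 32 genes in stromal cells (black) and, as open squares, in endothelial cells of the same libraries where the gene had at least 100 UMIs there. Bars are 95% counting intervals, mostly narrower than the symbols, and dashed lines mark 2-fold. Collagen genes and Sparc lie to the left in both cell types, and Hspa5, Dusp1 and Hbegf lie to the right in stromal cells but not in endothelial cells.

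Matrix proteases and their inhibitors were mostly within 2-fold, with 4 of 30 lower, 2 higher and a median of -0.12, and with 4 lower and 5 higher under a median-of-ratios or TMM-type scaling. Ctsk, the gene of the collagen-degrading cathepsin K, was at 255 and 53.8 CPM, 4.74-fold lower (4.58 to 4.90), and Mmp2, a gelatinase gene, at 294 and 90.2, 3.26-fold lower (3.17 to 3.35). The inhibitor Timp4 was at 2.95 and 0.925 CPM and Timp1 at 124 and 56.3, both also past 2-fold lower. The plasminogen activators Plau and Plat were the higher ones, at 3.31 and 14.5 CPM (4.38-fold, 3.87 to 4.97) and 60.5 and 172 (2.84-fold, 2.75 to 2.93). Adamts5 and Adamts4, which cut aggrecan, were within 2-fold at 187 and 216 and at 9.04 and 17.8 CPM.

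Several protein folding genes of the endoplasmic reticulum (ER) were higher. Hspa5, the gene of the ER chaperone BiP, was at 625 CPM at 3 w and 1938 at 16 w, 3.102-fold higher (3.07 to 3.13). The chaperones and cofactors Hyou1, Sdf2l1, Creld2, Manf, Hsp90b1 and Pdia4 were the other 6 of the 7 higher members among 44, for example Sdf2l1 at 10.8 and 47.8 CPM (4.43-fold, 4.14 to 4.75) and Manf at 135 and 359 (2.65-fold, 2.60 to 2.71). The single lower member was Ssr2, a subunit gene of the translocon, at 161 and 73.5 CPM. The median over the list was 0.16, and Xbp1, a transcription factor gene of the ER stress response, was within 2-fold at 122 and 209 CPM. In endothelial cells of the same libraries Hspa5 was at 1174 and 1137 CPM, a ratio of 0.968 (0.930 to 1.01).

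Genes that respond to load and to the actin cytoskeleton were often higher, with 8 of 21 higher, 0 lower and a median of 0.76. Without cells that had the 9 further markers, 6 were higher and the median was 0.50, and without the cells above the 95th percentile of UMIs 6 were higher and it was 0.54. Cyr61 and Ctgf, genes of matrix-bound CCN proteins, were at 211 and 1332 CPM (6.31-fold, 6.22 to 6.40) and at 2662 and 6077 (2.28-fold, 2.27 to 2.29). Ankrd1, another target of YAP, was at 6.55 and 34.8 CPM (5.32-fold, 4.88 to 5.80), and Amotl2, an inhibitor of YAP, at 55.4 and 144 (2.60-fold, 2.52 to 2.69). The ratio of Ankrd1 ran from 2.35 to 28.4 over the alternatives given at the end, far wider than its counting interval. Cnn1, Tagln and Myl9 of this list are also smooth muscle genes, and 1 cell held 17.6% of the 16 w UMIs of Tagln. Cyr61 was found in 14.6% (13.8 to 15.4) of 3 w and 46.3% (45.2 to 47.5) of 16 w cells at 1000 UMIs, at the depths given above, and in 11.4% and 18.6% of endothelial cells. The part of load in these differences was not tested, nor was that of tissue dissociation.

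Immediate early and stress genes, which are also known to be switched on while tissue is digested, were among the higher genes as well. Of 41, 12 were higher and 0 lower, with a median of 0.78. Under a median-of-ratios scaling 16 were higher, under a TMM-type scaling 17, and with equal weight for every cell 11. Dusp1, a phosphatase gene, was at 509.7 and 1946 CPM (3.82-fold, 3.78 to 3.86), Egr1, a growth factor-induced transcription factor gene, at 367 and 1030.3 (2.81-fold, 2.77 to 2.84), and Hspa1b, of the heat shock protein HSP70, at 207 and 1047 (5.06-fold, 4.98 to 5.14). Hspa1a and Hspa1b are near-identical copies, so that the split of their reads is uncertain. Fos was within 2-fold at 2159 and 3836 CPM, a ratio of 1.78 (1.77 to 1.79), with medians per cell of 177 and 964 CPM. In endothelial cells the median log2 ratio of the list was -0.15. The part of dissociation in the stromal difference was not tested.

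Metallothionein genes, which encode metal-binding proteins induced by zinc and glucocorticoids, were higher to different degrees, Mt2 at 1124 and 4989 CPM (4.44-fold, 4.41 to 4.47) and Mt1, within 2-fold, at 3086 and 5534, a ratio of 1.79 (1.79 to 1.80). The list of glucocorticoid-responsive genes, in which Mt2 is counted again, was split, with 4 of 14 higher, 2 lower and a median of 0.34. Errfi1, a feedback inhibitor of the EGF receptor, was at 295 and 1061 CPM and the kinase gene Sgk1 at 73.9 and 164, both past 2-fold higher. The classical targets Tsc22d3 and Fkbp5 were at 258 and 240.3 CPM and 36.7 and 38.9, and Angptl4 and Sult1a1 were lower, at 92.5 and 20.7 and at 4.83 and 1.31.

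Antioxidant and detoxification genes were mostly within 2-fold, with 5 of 39 lower, 2 higher (Mt2 and Aldh1a3) and a median of -0.35. Over all genes compared, 5.53% were lower and 5.24% higher, and 29 of the 39 had ratios below 1. Under a median-of-ratios or TMM-type scaling 4 were lower and 4 higher. Besides Slc7a11, Hmox1, the gene of the heme-degrading enzyme, was at 779 and 350.3 CPM (2.22-fold lower, 2.19 to 2.25), and Aldh1a1, a retinaldehyde dehydrogenase gene, at 54.3 and 18.97 (2.86-fold lower, 2.70 to 3.04). Sod2, the mitochondrial superoxide dismutase gene, was at 386 and 179 CPM, while Sod3, its extracellular relative, was at 548 and 711. The ferritin heavy chain gene Fth1 stayed within 2-fold at 8993 and 8638 CPM. Hmox1 was also lower in endothelial cells, at 1359 and 216 CPM, a ratio of 0.159 (0.148 to 0.171), and so was Slc7a11, at 146 and 5.84, a ratio of 0.0401 (0.0246 to 0.0617).

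Regulators of the tendon and cartilage lineages were mostly within 2-fold, in a list that also holds Tnmd and Foxd1. Of 37 genes, 8 were higher and 2 lower, Tnmd being 1 of the lower, with a median of 0.32. Sox9, the master regulator of cartilage, was at 206 and 691 CPM (3.35-fold, 3.30 to 3.41), and its relative Sox8 at 2.61 and 16.8 (6.45-fold, 5.64 to 7.39). Sox5 and Sox6, partners of Sox9, were at 333 and 279 and at 84.5 and 117 CPM. The tendon regulator Scx was at 145 and 232 CPM, a ratio of 1.60 (1.57 to 1.64), and Mkx at 21.9 and 23.6, both within 2-fold, unlike Tnmd. Prrx1, a mesenchymal homeobox gene, was at 716 and 633 CPM.

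Signals of the TGF-beta and BMP family were higher in 8 and lower in 0 of 33 genes, with a median of 0.55. Under a median-of-ratios or TMM-type scaling 10 were higher. The ligand Bmp2 was at 71.6 and 212 CPM (2.96-fold, 2.87 to 3.04), the antagonist Nog at 3.23 and 15.9 (4.92-fold, 4.35 to 5.58), and the target Id2 at 60.6 and 318 (5.24-fold, 5.10 to 5.39). The targets Id1 and Id3 were within 2-fold, at 89.9 and 137 and at 611 and 944 CPM. Ligands Tgfb1, Tgfb2 and Tgfb3 were within 2-fold too, at 40.1 and 46.7, 241 and 181, and 93.5 and 99.98 CPM.

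Wnt genes were higher in 5 and lower in 3 of 19, with a median of 0.57. Axin2, a feedback target of the pathway, was at 8.31 and 21.6 CPM (2.60-fold, 2.39 to 2.83), Tcf7, a nuclear effector, at 1.86 and 4.76, and the inhibitors Dkk2 and Sfrp1 at 0.953 and 4.12 and at 145 and 297, all past 2-fold higher. Ror1, a receptor of Wnt5a, the ligand Wnt5b and the inhibitor Sfrp2 were past 2-fold lower, at 4.41 and 1.28, 1.499 and 0.667, and 26.9 and 12.5 CPM. Dkk3, the most abundant of the list, was at 236 and 271 CPM.

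In the IGF axis the binding proteins moved in both directions, with 2 of 14 genes higher, 3 lower and a median of 0.13. Igfbp5 was at 1026 and 3214 CPM (3.13-fold, 3.11 to 3.16) and Igfbp3 at 49.4 and 173 (3.502-fold, 3.39 to 3.62), while Igfbp7 was at 3113 and 1501 (2.07-fold lower, 2.06 to 2.09), a value that falls inside 2-fold under a median-of-ratios or TMM-type scaling. The ligand Igf1 was at 44.1 and 28.2 CPM and its receptor Igf1r at 110.3 and 123. Among growth factor and hormone receptors and ligands, 8 of 38 were higher and 4 lower, with a median of 0.34. The EGF receptor ligand Hbegf was at 53.1 and 295 CPM (5.55-fold, 5.39 to 5.72) and Fgfr3, a receptor that restrains cartilage growth, at 8.75 and 26.8 (3.06-fold, 2.83 to 3.32). Mdk, the gene of the heparin-binding growth factor midkine, was at 63.5 and 21.8 CPM (2.92-fold lower, 2.76 to 3.08), and the growth hormone receptor gene Ghr, just inside the limit, at 53.7 and 27.4.

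Complement genes and acute phase chemokines moved apart within 1 list, with 6 of 24 higher, 6 lower and a median of 0.24. Higher were the central component C3 at 15.8 and 85.0 CPM (5.37-fold, 5.08 to 5.67), C4b at 62.6 and 353 (5.64-fold, 5.48 to 5.79), and Clu, the gene of clusterin, which can block complement, at 2714 and 6376 (2.35-fold, 2.34 to 2.36). Lower were the monocyte chemokine gene Ccl2 at 97.9 and 12.8 CPM (7.67-fold lower, 7.17 to 8.21), the serum amyloid gene Saa2 at 8.65 and 0.544 (15.9-fold lower, 11.6 to 22.4) and Il6 at 48.2 and 17.4, a ratio of 0.361 (0.340 to 0.385). The lower genes were in few cells, with a UMI of Ccl2 in 10.5% and 4.14% and of Saa2 in 0.813% and 0.112% of the cells at full depth. Saa1 and Saa2 are close copies between which reads may be split.

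**Figure D4:**
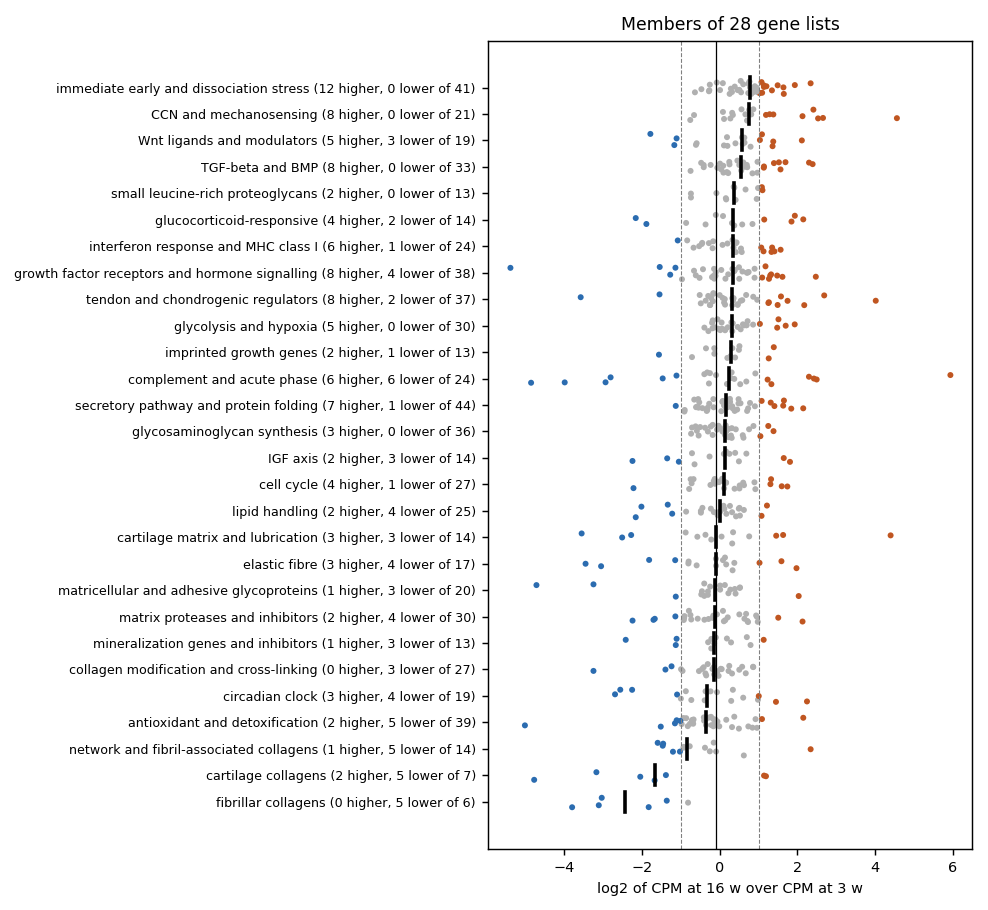
The log2 ratio of CPM at 16 w to 3 w for the tested members of 28 gene lists, sorted by the list median (thick black bar), with members past 2-fold in orange (higher) and blue (lower). The thin solid line is the median of all 12053 genes at -0.09 and the dashed lines mark 2-fold. Fibrillar and cartilage collagens have the lowest medians, -2.43 and -1.68, and immediate early genes the highest, 0.78.

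Genes of the circadian clock were found in both directions. Dbp, Hlf and Tef, output genes of this clock, were at 379 and 58.6 CPM (6.47-fold lower, 6.27 to 6.68), 83.9 and 14.2 (5.90-fold lower, 5.53 to 6.29) and 56.9 and 26.6, all past 2-fold lower, as was Per3, at 39.4 and 8.26, which overlaps Camta1 on the same strand. Npas2 and Arntl, of the positive arm of the clock, were past 2-fold higher, at 3.505 and 16.6 and at 13.3 and 36.2 CPM, and so was Nfil3, a repressor of Dbp targets, at 62.6 and 126. Over the list 3 of 19 were higher and 4 lower, with a median of -0.32. Dbp was lower in endothelial cells too, at 163 and 16.7 CPM, a ratio of 0.103 (0.0776 to 0.133). The hour at which tissue was taken is not given in the sources used here, and its part was not tested.

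Abundant genes outside these lists filled the rest of the largest differences in CPM. Gsn, the gene of the actin-severing gelsolin, was at 10166 and 14537 CPM, a ratio of 1.43 (1.43 to 1.43), and Vim, the gene of the intermediate filament vimentin, at 8530.0 and 6629, a ratio of 0.777 (0.774 to 0.780). Ftl1, the gene of the ferritin light chain, was at 4081 and 2542 CPM, a ratio of 0.623 (0.619 to 0.626). Angptl7, the gene of an angiopoietin-like protein of cornea and ligament, was at 2201 and 545 CPM, 4.04-fold lower (4.00 to 4.09).

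Because the stromal cells are mixed, the ratios were also read within kinds of cells set by a UMI of Chad, or of Tnmd or Kera (tendon and cornea matrix genes), after thinning to 1000 UMIs. These are the same cells in which the genes past 2-fold were found, so the counts describe their spread and are no second measurement. Chad and Tnmd were themselves past 2-fold different between the ages, so each kind may hold a different mix of cells at each age. Cells with Chad were 43.2% of the 3 w and 54.2% of the 16 w cells, and cells with Tnmd or Kera 10.97% and 4.44%. All 516 of the higher genes that could be compared within cells with Chad were also above 1 there, and 499 of 502 lower genes below 1. In cells without Chad these were 435 of 439 and 558 of 558, and in cells with Tnmd or Kera 125 of 129 and 309 of 311. Col1a1 had ratios of 0.0624 in cells with Chad, 0.0836 in cells without it and 0.0992 in cells with Tnmd or Kera. Prg4 had 3.12, 2.24 and 2.49, and Cytl1 22.0, 5.55 and 44.6, so that the size of the Cytl1 difference varied widely with the kind of cell.

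Endothelial cells of the same libraries, 659 at 3 w and 490 at 16 w, chosen by Pecam1 and Cdh5 together, showed many of the same ratios for stromal genes at lower levels. Col1a1 was at 2903 and 277 CPM there (0.0953, 0.0893 to 0.102), Sparc, which endothelial cells make themselves, at 7074 and 1895 (0.268, 0.261 to 0.275), Cytl1 at 20.01 and 536 (26.8, 21.9 to 33.0) and Prg4 at 492 and 2035 (4.14, 3.95 to 4.33). Free RNA in droplets would carry stromal transcripts into every barcode of a library, and its part was not tested. Gm42418, which overlaps ribosomal RNA sequence, was at 8873 CPM at 3 w and 2867 at 16 w in stromal cells and at 10786 and 4549.7 in endothelial cells, and the nuclear RNA Malat1 at 36787 and 45456 in stromal cells. With CPM taken without Gm42418, Malat1 and mitochondrial genes, 643 genes were higher and 644 lower.

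The other normal libraries, from pups at 3 d (males and females) and mice at 78 w, are given beside these values with the same choice of cells. In order of age, Col1a1 had 9793, 13006, 935 and 893 CPM and Sparc 11414, 26754, 2814 and 3536. Col3a1, Eln and Postn were highest at 3 d, at 8227, 2542 and 2185 CPM, and were at 1005, 9.55 and 12.97 at 78 w. Angptl7 had its highest value at 3 w, with 0.673, 2201, 545 and 325 CPM. Dcn was at 3175, 21765, 27926 and 26559.6 CPM and Comp at 55.5, 5606, 5792 and 8049, so that both were low in newborn cells and lay within 2-fold across the 3 later ages. Prg4 and Cytl1 were highest at 78 w, at 12097 and 3031 CPM, and were at 114 and 2.61 at 3 d, whereas Lepr and Mt2 were highest at 16 w, with 0.580 and 54.0 CPM at 3 d and 87.0 and 2667 CPM at 78 w.

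**Figure D5:**
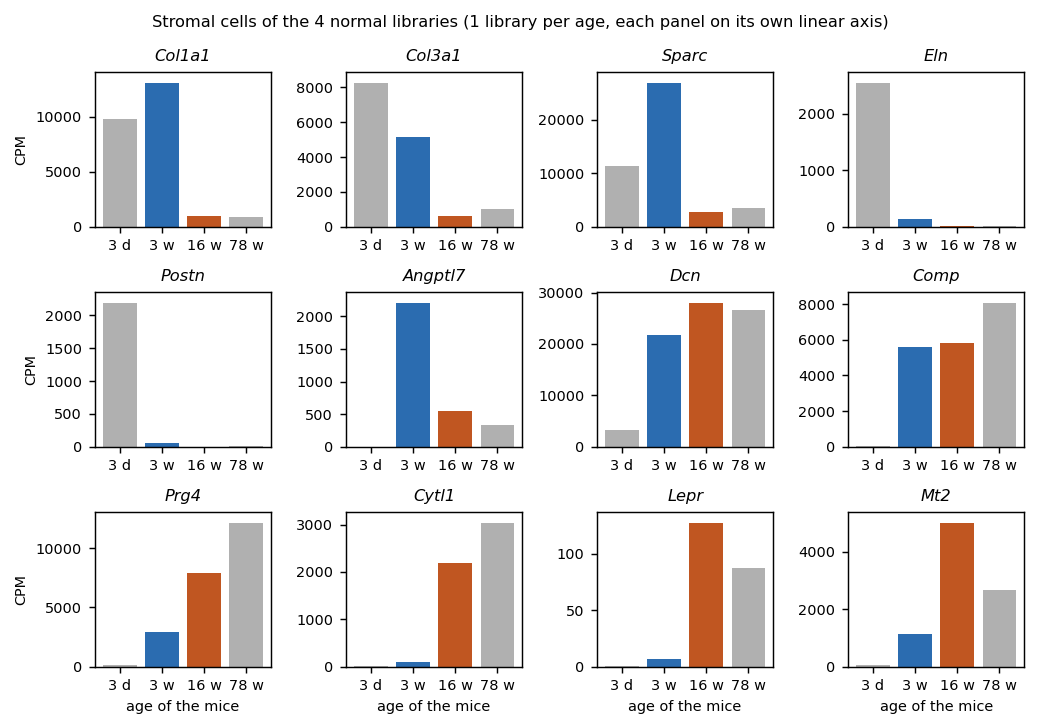
CPM of 12 genes in the stromal cells of the normal libraries, 1 bar per library, with the age of the mice on the x axis and each panel on its own linear axis from 0. The libraries compared here are blue (3 w) and orange (16 w). Col1a1 and Sparc drop between 3 w and 16 w and are at 893 and 3536 CPM at 78 w, and Prg4 and Cytl1 are higher at each later age.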

How the data were processed

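Single-cell RNA-seq (10x Genomics, 3′ ends, UMIs) was made by the authors from 1 library per age. The deposited values are raw UMI counts per gene and barcode, not normalized. The submitters' processing notes name Cell Ranger 3.1, whereas the file headers give 4.0.0. The build, mm10 (GRCm38), is given in the same notes, and 27645 of 27998 gene identifiers (98.7%) were matched to GENCODE M21 for positions. Barcodes had been filtered before deposit, and no doublets were called or removed here.

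Stromal cells were selected as stated at the opening and their UMIs summed per library. The ratio of CPM at 16 w to 3 w was taken for genes with at least 100 UMIs in the library with the higher CPM, counts under 3 were set to 3, and 2-fold was the limit. Exact Poisson intervals were given for CPM, exact conditional intervals for ratios and exact binomial (Clopper-Pearson) intervals for shares of cells. All intervals used the counts as they were, without the limit of 3. Cells were also thinned to 1000 UMIs. Endothelial cells had at least 1 UMI of Pecam1 and of Cdh5 and none of Ptprc, Tyrobp, Rgs5 and Alas2. No p-value was computed, since each age has 1 library. The calculation of ratios and intervals was also run on simulated Poisson counts with known changes, built from the summed counts of these libraries. Such counts hold no spread between cells or mice.

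Genes named in the text are the 15 largest and 15 smallest ratios, the 10 largest differences in CPM in each direction, up to 4 members of each list with the largest change and its most abundant member, and the 7 genes of the selection with Pdgfra. A few genes that meet this rule are not reported here. Other genes were named after their values were seen. The cells, the genes and the lists were chosen with earlier results of these data known. The alternatives tried were stricter filters, other selection genes, other scalings, other minimum counts, equal weight per cell and separate kinds of cells. Leaving out barcodes found in both libraries and leaving out Gm42418, Malat1 and mitochondrial genes were added after the data were seen. Python 3.11.15, numpy 2.4.6, scipy 1.17.1, pandas 2.3.3 and matplotlib 3.10.9 were used.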

Additional observations from a re-analysis of the deposited data

Results flagged for a closer look

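Endothelial and stromal cells of the same libraries moved in opposite directions past 2-fold for 2 of the named genes. Hbegf was 5.55-fold higher at 16 w in stromal cells (53.1 and 295 CPM) and had a ratio of 0.459 in endothelial cells (456 and 209.6 CPM, interval of the ratio 0.423 to 0.499). Gadd45a, a gene of growth arrest, was 3.12-fold higher in stromal cells (14.1 and 43.8 CPM) and had a ratio of 0.383 in endothelial cells (91.4 and 35.0 CPM, 0.312 to 0.467). With 1 library per age, the difference between the cell types was not tested.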

How the results depend on the processing

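No gene past 2-fold was past 2-fold in the opposite direction under another filter, selection, scaling or weight of the cells. The count of genes past 2-fold ranged from 576 to 904 higher and from 524 to 942 lower over settings other than the minimum of 500 UMIs, where it was 330 and 392. Stricter choices of cells gave 7162 (at least 2000 UMIs and at most 10% mitochondrial), 6988 (selection genes at 2% of UMIs), 7095 (selection by Dcn, Fmod, Bgn and Lum), 6617 (9 more markers excluded) and 6892 cells (those above the 95th percentile of UMIs left out) at 3 w, and 6330, 7041, 6337 and 6765 at 16 w for the last 4. Ratios that turned were Spp1 (1.198) and Chad (0.864) within cells with Tnmd or Kera, Sfn (0.858 within cells without Chad, 0.803 without Chad, Tnmd or Kera) and Actg2 (0.732 without the cells of most UMIs). The cause was not tested. Without the 9 markers Des, Col22a1, Myh11, Actg2 and Cnn1 were no longer past 2-fold, Myh11 and Col22a1 by construction, and under a median-of-ratios or TMM-type scaling Ifitm2, Sdhd and Igfbp7 were not. With equal weight for every cell Spp1, Gpnmb, Dpp4, Chad and Des were not, without the cells of most UMIs Dpp4, Des and Actg2, and without the 20 most abundant genes Dpp4 and Rps21. Of named genes that could be compared, 121 of 124 stayed past 2-fold within cells with Chad (not Hmox1, Dpp4 and Chad), 118 of 127 within cells without it, 64 of 76 within cells with Tnmd or Kera and 116 of 126 within cells with none of the 3. Chad set the cells with and without it, so its own ratio there follows from that choice. Within cells with Tnmd or Kera, Ctgf, Clu, Lox, Adamts2, Aspn, Mdk, Aldh1a1, Gpnmb, Abi3bp and Thbs1 were among those lost, and Adamts2, Gpnmb, Rps21, Chst11, Abi3bp and Thbs1 within cells without Chad. The mineralization list had 1 lower instead of 3 genes with equal weight for every cell, and at a minimum of 500 UMIs the IGF list had 1 lower instead of 3, the Wnt list 3 higher and 1 lower instead of 5 and 3, and the growth factor list 1 lower instead of 4, as fewer members were compared. Over all alternatives Col1a1 had ratios from 0.0624 to 0.0992, Sparc from 0.0968 to 0.113 and Cytl1 from 5.28 to 44.6. No paired analysis was possible because each age has 1 library. Intervals cover counting error, and the spread between mice is unknown.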

Other observations

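Several lists not described above were mostly within 2-fold. Glycolysis and hypoxia genes had 5 higher and 0 lower of 30, with a median log2 ratio of 0.31, among them the angiogenic factor Vegfa at 38.7 and 108 CPM (2.79-fold, 2.68 to 2.90) and Epas1, which encodes a hypoxia-inducible factor, at 4.85 and 18.5 (3.81-fold, 3.43 to 4.23), while the glycolytic Gapdh was at 818 and 1007. Interferon and MHC class I genes had 6 higher and 1 lower of 24 (median 0.34), with the immunoproteasome genes Psmb8 at 2.97 and 7.47 CPM and Psmb9 at 1.39 and 3.54. The single lower one was Ifitm2, at 1415 and 669, which overlaps another gene on the same strand. Glycosaminoglycan synthesis had 3 higher and 0 lower of 36 (median 0.14), including Xylt1, which starts the sugar chains, at 40.1 and 95.3 CPM and the sulfotransferase gene Chst11 at 20.5 and 42.3. Lipid handling had 2 higher and 4 lower of 25 (median 0.01), the lower ones including Dgat2, of triglyceride synthesis, at 17.4 and 7.44 CPM. Mineralization genes had 1 higher and 3 lower of 13 (median -0.14), and Mgp, an inhibitor of calcification, was at 3817 and 3103 CPM.

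Cell cycle genes had 4 higher and 1 lower of 27 (median 0.11), with Top2a, of dividing cells, at 0.616 and 1.54 CPM against 74.9 at 3 d, and Ccnb1, a mitotic cyclin gene, at 1.65 and 0.354. Imprinted growth genes had 2 higher and 1 lower of 13 (median 0.28), with the fetal growth factor gene Igf2 at 25.5 and 15.5 CPM against 1674 at 3 d, and the growth-restraining RNA H19 at 2.25 and 0.762 against 1112. Cytosolic ribosomal protein genes had 3 higher and 0 lower of 82, namely Rpl23a, Rplp2 and Rps21, whose reads pseudogene copies may share. Nuclear genes of the respiratory chain had 0 higher and 2 lower of 89, and all 13 mitochondrially encoded genes were within 2-fold.

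Markers of neighbouring mesenchymal cells were split. Synovial lining markers had 4 higher and 1 lower of 8. The higher ones were Clic5, at 1.05 and 8.55 CPM, and Prg4, Col22a1 and Hbegf, which are counted above in other lists. The lower one was Procr. Adventitial fibroblast markers had 2 higher of 6, with Pi16 at 16.0 and 48.9 CPM. Lower were 5 of 8 chondrocyte markers (1 higher), 1 of 4 osteoblast markers, Phex, and 1 of 5 tenocyte markers, Tnmd.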
